A study of Mus musculus with 28 samples.

Results

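Kidneys lacking both Hoxa11 and Hoxd11 were compared with wild type kidneys over 3 embryonic stages, and the differences described here are those that kept their direction at all 3. All 12 embryonic samples of the study entered, of 14 in all, and the 2 adult samples did not. There were 6 null and 6 wild type samples, 2 of each at E12.5, at E13.5 and at E16.5 (days of gestation). Wild type kidneys came from CD-1 embryos and were pooled. A null sample was both kidneys of 1 embryo targeted at Hoxa11 and Hoxd11, of a strain the labels do not name, so genotype cannot be told apart from strain or from pooling. From 30 ng of total RNA, 2 rounds of in vitro transcription made the labelled RNA, and each sample was hybridised to both designs of an Affymetrix mouse array set, 430A and 430B.

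Hoxa11 and Hoxd11 are homeobox transcription factors of paralogue group 11, made in the mesenchyme of the metanephros, the permanent kidney. There they act with Eya1 and Pax2 on Six2, which keeps nephron progenitors, and on Gdnf, the ligand that draws the ureteric bud into the mesenchyme and makes it branch. Embryos without both genes form small kidneys with little branching. Nephrons arise from the progenitors through renal vesicles, while stroma, endothelium and macrophages are separate lineages.

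The values are MAS5 signals, a linear measure of brightness per probe set, a group of probes for 1 transcript. Each difference is the null minus wild type mean of log2 signal from a limma fit with stage as a block, given ± SE (n = 6 samples per genotype), so that 1 is a doubling. A probe set was called shared where its adjusted p was under 0.05 and its difference kept its sign from E12.5 through E13.5 to E16.5, with 2 samples per group at each stage. Genes are said to rise or fall in the null only where they passed this rule. Of 29383 probe sets tested, 5236 rose (17.8%) and 5510 fell (18.8%). By gene, each read by 1 probe set, 3012 of 13600 rose (22.1%) and 2600 fell (19.1%), and these are the background for the list counts below. Most genes of each list were read on 430A, where 27.7% of probe sets rose and 18.3% fell. There the median difference over 8432 genes was 0.15, against -0.03 for genes of both designs. In either direction 36.6% of probe sets had a shared call, while 39.0% had an adjusted p under 0.05. Calls of at least 2-fold made up 10.5% upward and 9.07% downward. All 6 null samples lay above all 6 wild type samples in 8.3% of probe sets and below them in 5.7%, and the null lay above the wild type within each stage in 12.9% and below it in a similar share (3816 probe sets). The labels do not say whether replicates came from separate litters, and p-values measure the spread between these samples. Since whole kidneys were measured, fewer cells of a type and less RNA per cell cannot be told apart.

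The arrays of the genotypes also differed in a measure of RNA amplification. The actin signal near the 3' end of the transcript was divided by that near its 5' end, a ratio that grows as amplified RNA shortens. On 430A it was 1.72 ± 0.44 (SD, n = 6) in the null and 3.46 ± 0.49 in the wild type, and the ranges, 1.26 to 2.27 and 2.88 to 4.13, did not overlap. The difference had an exact permutation p of 0.00926, two-sided within stages, the smallest that 216 arrangements allow, and 430B gave 1.75 ± 0.42 and 3.50 ± 0.67 with the same p. Entering the log2 ratio as a covariate left 841 probe sets that rose and 550 that fell. The part of the ratio in any gene's difference was not tested. The main gene groups are therefore also given with this covariate. Both genotypes of 1 stage were scanned on the same day in 0 cases. The E16.5 null arrays were read on another scanner type than the rest, so genotype cannot be told apart from scan day within a stage. The median signal of the arrays differed as well. On 430A it was 516.7 ± 31.0 (SD, n = 6) in the null and 431.5 ± 42.1 in the wild type (exact permutation p 0.037). On 430B it was 553.1 ± 121.6 and 693.2 ± 90.9 (0.00926).

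**Figure D1:**
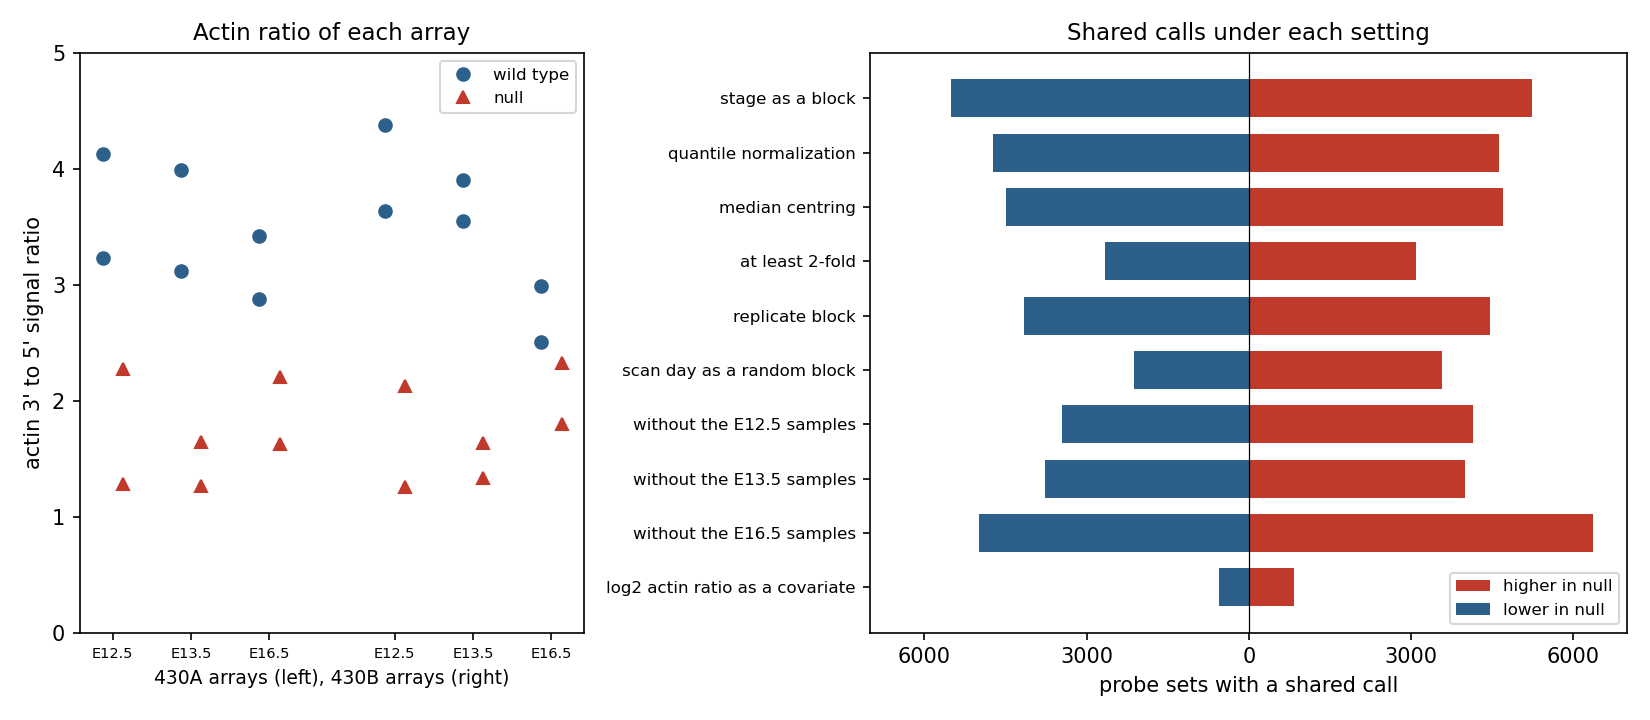
Left, the actin 3' to 5' signal ratio of each array by stage, with wild type as circles and null as triangles, on 430A and 430B. Right, the number of probe sets that rose (red) or fell (blue) in the null under the stage-blocked fit and 9 alternatives. On 430A the ratio is at most 2.27 in the null and at least 2.88 in the wild type, and the count of calls is smallest with the ratio as a covariate.

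Hoxa11 was lower in every null sample. The lowest, median and highest wild type signals were 1940, 2219 and 3431, and the null signals 211, 374.8 and 500.1. The groups were far apart at each stage, and null signal remained above the floor of 87.8 to which low values were raised. The difference was -2.80 ± 0.18 (adjusted p 2.66e-06, limma), a 6.97-fold lower signal, with -2.66 at E12.5, -2.53 at E13.5 and -3.21 at E16.5. It fell in all 29 alternatives. Hoxa11os, an RNA read from the opposite strand of the locus, moved with it by -2.14 ± 0.19. It was chosen after its values were seen. The Hoxd11 probe set stayed under the filter on low values and was not tested. Its signal ran from 326.6 to 417.5 in the wild type and from 272.5 to 529.6 in the null, and the groups overlapped. Whether it lies in the deleted part of the gene is not given in the sources used here, so it checks nothing.

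**Figure D2:**
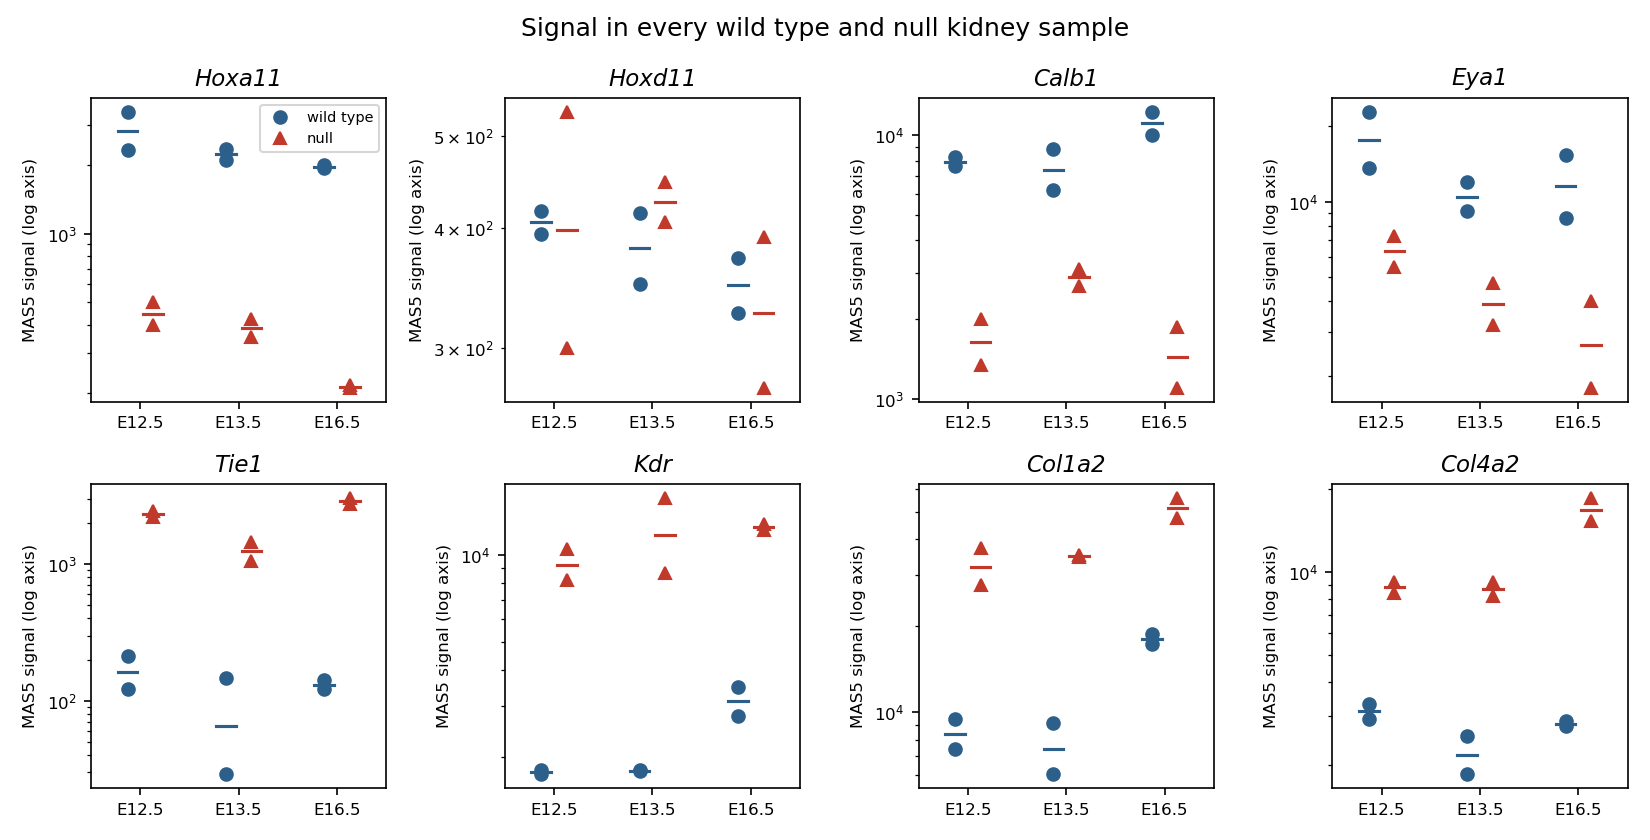
MAS5 signal (log axis) of 8 genes in each of the 12 kidney samples by stage, wild type as circles and null as triangles; bars are geometric means of 2 samples. Hoxa11, Calb1 and Eya1 are lower and Tie1, Kdr, Col1a2 and Col4a2 higher in the null at every stage, while Hoxd11 overlaps between genotypes.

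The stretch upstream of Hoxa11 is shown with those of genes at the ends of the ranking described next. Each run is the 250 bases before the RefSeq start on the gene's own strand in GRCm38.p6 (Hoxa11 chr6:52245811-52246060, Hdac7 chr15:97831496-97831745, Zhx3 chr2:160872991-160873240, Cetn2 chrX:72918345-72918594, all on the minus strand). Hdac7 has 4 starts in the table and the run is from the first listed. Capitals mark CG pairs, of which there are 13, 25, 28 and 16 in this order, with a GC content of 52.0%, 74.0%, 73.6% and 57.6%.
Hoxa11: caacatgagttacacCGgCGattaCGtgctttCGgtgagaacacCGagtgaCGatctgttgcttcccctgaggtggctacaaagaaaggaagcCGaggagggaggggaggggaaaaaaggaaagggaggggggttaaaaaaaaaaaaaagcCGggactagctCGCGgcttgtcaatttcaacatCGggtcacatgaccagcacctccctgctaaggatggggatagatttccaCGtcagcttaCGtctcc
Hdac7: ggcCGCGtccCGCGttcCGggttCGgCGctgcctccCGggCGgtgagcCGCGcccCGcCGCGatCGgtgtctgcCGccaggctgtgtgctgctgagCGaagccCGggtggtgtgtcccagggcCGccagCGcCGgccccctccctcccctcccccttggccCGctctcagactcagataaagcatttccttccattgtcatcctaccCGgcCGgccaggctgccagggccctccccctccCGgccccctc
Zhx3: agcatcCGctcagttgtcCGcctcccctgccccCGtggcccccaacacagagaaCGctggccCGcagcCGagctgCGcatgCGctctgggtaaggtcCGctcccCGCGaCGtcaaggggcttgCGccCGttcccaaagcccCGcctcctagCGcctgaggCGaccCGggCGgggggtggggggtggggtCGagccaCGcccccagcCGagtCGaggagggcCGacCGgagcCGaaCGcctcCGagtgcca
Cetn2: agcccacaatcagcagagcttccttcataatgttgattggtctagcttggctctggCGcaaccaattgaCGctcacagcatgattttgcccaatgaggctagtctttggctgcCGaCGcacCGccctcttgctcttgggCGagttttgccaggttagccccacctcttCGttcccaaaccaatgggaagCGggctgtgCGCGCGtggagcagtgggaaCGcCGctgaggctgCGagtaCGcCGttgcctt
Over all genes with such a run, the median GC content was 62.0% in 2429 genes that rose, 58.0% in 2111 that fell and 59.6% in 10930 that were tested. The middle range of values overlapped widely, from 55.6% to 68.4% in the genes that rose and from 50.8% to 65.2% in those that fell. TTTATNG, a motif of Hox proteins of groups 9 to 13 searched on both strands, was in none of the 4 runs. It was in 5.43% of runs of genes that rose, 7.58% of those that fell and 6.45% of those of all tested genes, and in 10.2% of 27025 runs in the table. No test was made of these shares, which describe the letters in the windows.

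Rises and falls that were large at every stage were sought among genes read by several probe sets. There were 492 genes with 2 or more shared calls upward, none downward and no overlap of the genotypes within any stage (3.62% of genes), and 344 of the downward kind (2.53%). Ranked by their smallest stage difference, the 10 highest were led by Hdac7, a histone deacetylase, and Zhx3, a zinc finger and homeobox repressor. Hdac7 had a signal of 783.3, 829.7 and 1109 (lowest, median, highest) in the wild type and 3074, 3784 and 5836 in the null. All null samples lay above all wild type samples, with a difference of 2.19 ± 0.18 (adjusted p 8.28e-06) and close values at the 3 stages, 2.03, 2.10 and 2.43. Its other probe set rose by 3.56.

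Zhx3 rose by 2.36 ± 0.35, and its 3 other probe sets ran from -0.43 to 2.46. Next came Tcf3, a helix-loop-helix protein that pairs with tissue-specific partners, at 2.15 ± 0.29 with 3 concordant probe sets. Peg3, an imprinted zinc finger gene, rose by 4.01 ± 0.49, and its stage differences of 5.69, 4.62 and 1.72 were unequal (F test adjusted p 0.000587). Sox4, a transcription factor of progenitor cells, was unequal too at 3.78, 3.19 and 1.57 (0.0292). The other 8 had no call in the F test. Arhgap28 rose by 2.21 ± 0.22 and Ulk1, the kinase that starts autophagy, by 1.71 ± 0.17. Emilin1, a glycoprotein of elastic fibres, rose by 1.87 ± 0.17, and Bmp1, the protease that trims procollagen, by 2.42 ± 0.29. Ube2h, a ubiquitin-conjugating enzyme, rose by 1.81 ± 0.22. Other probe sets ran from 0.14 to 3.24 for Arhgap28 and from 0.19 to 2.48 for Peg3. They ran from 0.39 to 3.67 for Ube2h and from 0.57 to 3.01 for Sox4. With the actin ratio as a covariate Hdac7, Arhgap28, Emilin1, Bmp1, Ulk1 and Ube2h were still called and Zhx3, Tcf3, Peg3 and Sox4 were not (adjusted p 0.0845, 0.0882, 0.177 and 0.119).

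The 10 lowest were smaller in size. Eny2, a subunit of a histone acetyltransferase and of an RNA export complex, had a signal of 1854, 2678 and 3534 in the wild type and 603.8, 786.6 and 1008 in the null. The groups did not overlap, and the difference was -1.72 ± 0.16 (adjusted p 1.75e-05), with -1.49, -1.97 and -1.70 by stage, while its 3 other probe sets ran from -2.25 to 0.36. Cetn2, a protein of centrioles, fell by 1.70 ± 0.19. Ssb, which binds the ends of new small RNAs, fell by 2.13 ± 0.33, most at E16.5 (-1.38, -1.70 and -3.32, F test adjusted p 0.0447). Sf3b6 of the splicing machinery fell by 1.39 ± 0.26, Med6 of the Mediator complex by 1.39 ± 0.24 and Farsb, a tRNA synthetase subunit, by 1.27 ± 0.20. The 3 other Farsb probe sets ran from -1.72 to -0.05. Cenpw, a kinetochore protein, fell by 1.54 ± 0.28, and Meox2, a homeobox gene of mesenchyme and vessels, by 1.58 ± 0.27. Gimap4, a GTPase of lymphocytes, fell by 1.42 ± 0.27 and 2610044O15Rik8 by 1.67 ± 0.25. With the covariate Eny2 and Ssb were still called, and the other 8 were not. With scan day as a random block Cenpw and Med6 lost their calls (adjusted p 0.0585 and 0.0719).

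**Figure D3:**
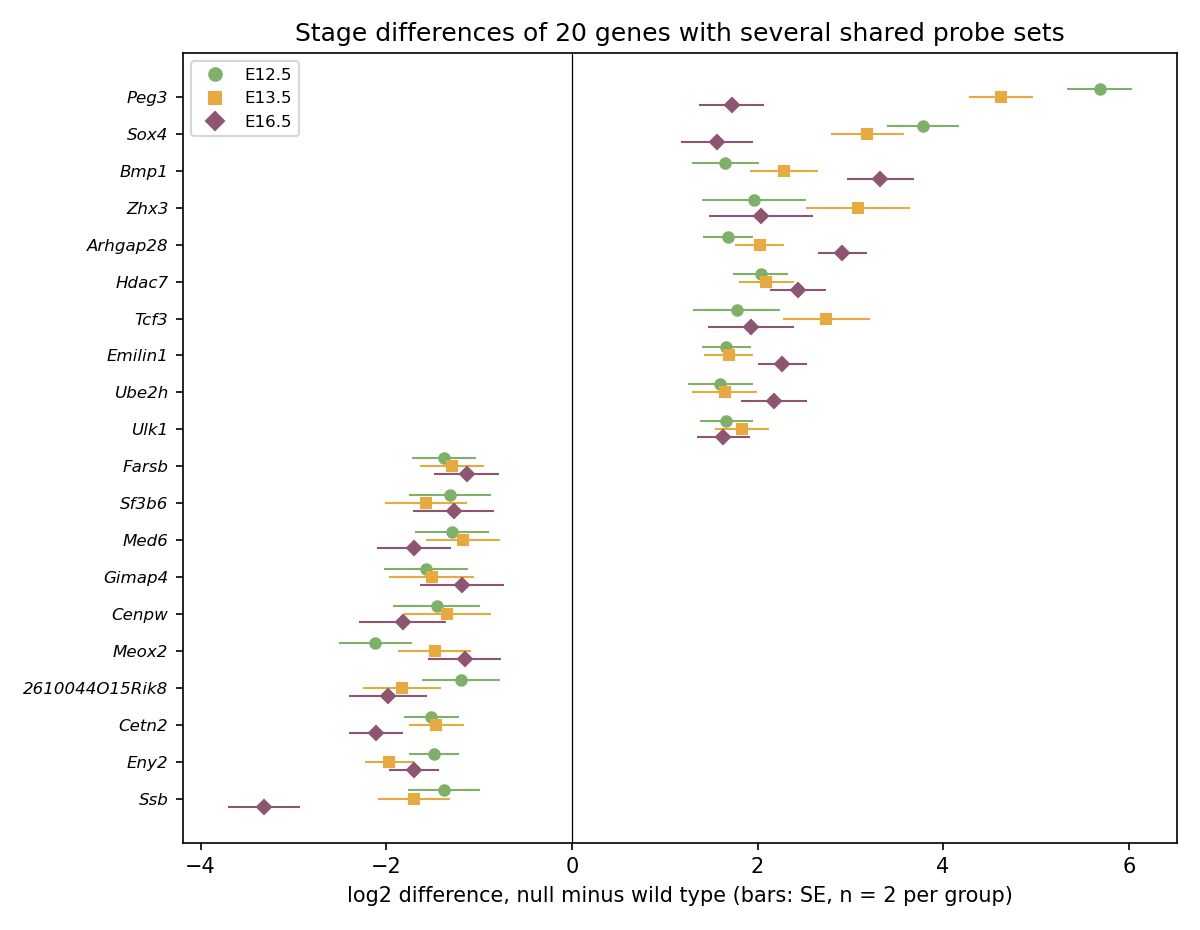
Log2 difference between null and wild type at E12.5 (circles), E13.5 (squares) and E16.5 (diamonds) with its SE, for 10 genes that rose and 10 that fell by several probe sets each. Most genes have 3 close values, and Peg3, Sox4 and Ssb have unequal ones.

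Single probe sets, ranked in the same way, gave larger differences. Col1a1, the main chain of type I collagen, was read near the floor in the wild type (48.7, 201.9 and 342.8) and at 2081, 3843 and 5643 in the null. The groups were well apart, and the difference was 4.29 ± 0.29, 19.6-fold, with 4.43, 4.51 and 3.94 by stage. A second Col1a1 probe set, brighter in the wild type, rose by 1.47 ± 0.23, so the size depended on the probe set. Tie1, a receptor of endothelial cells, was 29.1, 132.2 and 212.3 in the wild type against 1047, 2318 and 3034 in the null, a rise of 3.91 ± 0.24. All 6 wild type samples were at the floor for Nid1, which links laminin to collagen IV, and the null was at least 14.9-fold higher. Its other probe set gave 0.64 and was not called. Igfbp4, which binds insulin-like growth factors, rose by 3.79 ± 0.25 with 5 wild type samples at the floor, and its 5 other probe sets gave 0.19 to 2.11. Adamts6, a secreted protease, rose by 3.68 ± 0.25 and Slit3, a secreted guidance cue, by 3.91 ± 0.32. The other Adamts6 probe set gave 1.17 without a shared call.

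On the lower side after Hoxa11 stood Dkc1, which modifies ribosomal RNA. Its signal was 4985, 11422 and 18024 in the wild type and 595.2, 1497 and 3618 in the null, with no overlap and a difference of -2.72 ± 0.30, larger than in its other probe sets (-0.95 and -0.27). Ap1s3, a clathrin adaptor subunit, fell by 3.23 ± 0.36, most at E16.5 (-2.91, -2.24 and -4.53, F test adjusted p 0.0418). Snhg1, host of small nucleolar RNAs, fell by 2.55 ± 0.25. Gigyf2, a repressor of translation, fell by 2.69 ± 0.45, though 1 of its 2 other probe sets gave 0.60 without a call, its adjusted p was 0.0542 with scan day as a random block, and it was -1.31 (0.299) with the actin covariate. Dnajc17, a co-chaperone, fell by 2.16 ± 0.29, with -0.15 and no shared call in its other probe set.

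Among 13 nephron progenitor genes, 4 of 11 measured rose (36.4%) and 3 fell (27.3%), beside 22.1% and 19.1% of all genes. The median was 0.38 against -0.03 over all genes. On 430A alone the median was 0.49 over 10 of them and 0.15 over all genes read there. Eya1, the phosphatase and co-activator that works with Hox11, had a signal of 8618, 12767 and 22907 in the wild type and 1788, 4334 and 7273 in the null. All null samples were lower, by -1.68 ± 0.26 (adjusted p 0.000376), with -1.48, -1.44 and -2.11 by stage. The other Eya1 probe set gave -0.70 without a shared call. Gdnf was 2075, 2434 and 3512 against 990.6, 1580 and 2031, again without overlap, and fell by 0.79 ± 0.18, though by 0.22 at E13.5. Six2 did not pass: its difference was -0.30 ± 0.21 (adjusted p 0.268), with -0.01, 0.05 and -0.95 by stage. Its signal ran from 1197 to 1611 in the wild type and from 569.8 to 1469 in the null, so the genotypes overlapped. Sall1, a zinc finger gene needed for the ureteric bud to enter, rose by 2.08 ± 0.36 from near the floor, while its other probe set gave -0.60. Itga8, an integrin of the mesenchyme, rose by 1.21 ± 0.35, with -0.26 in its other probe set, and Crym, a progenitor marker, fell by 1.43 ± 0.38, though by 0.06 at E16.5. Without wild type E16.5 replicate 2 neither was called, with Itga8 between 0.96 and 1.47 and Crym between -1.74 and -1.19 over single left-out libraries, and Crym was lost too without null E16.5 replicate 1. Cited1, a marker of the youngest progenitors, passed the test at -2.15 ± 0.54 and was left out because its E16.5 difference was 0.09.

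Of the 5 measured partners and targets of Hox11 (Eya1, Six2, Six4, Gdnf and Itga8), Eya1 and Gdnf fell, Itga8 rose and Six2 and Six4 did not pass. With the actin ratio as a covariate neither this list nor the progenitor list held a call. Eya1 was then -1.64 (adjusted p 0.0701) and Gdnf -0.90 (0.177).

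Genes of the ureteric bud were near 0 at the median. In its tips, 2 of 11 measured genes rose (18.2%) and 1 fell (9.09%), beside 22.1% and 19.1% of all genes. The median of 0.08 turned to -0.18 when arrays were centred on their medians. Ret, the Gdnf receptor, was 0.08 ± 0.24 and Wnt11, its target, 0.05 ± 0.19, and both lacked a call. Spry1, an inhibitor of Ret signalling, rose by 0.62 ± 0.17 and Etv5, a factor under Ret, by 0.74 ± 0.21. Neither was called with median centring, nor with the actin covariate (0.30 with adjusted p 0.635, and 0.23 with 0.776). The 2 other Etv5 probe sets gave 0.24 and 0.31 without a shared call. Slco4c1, an organic anion carrier, fell by 0.88 ± 0.31, a call lost without any 1 of 8 libraries (adjusted p up to 0.0937) and with scan day as a random block (0.376). In the trunk and later collecting duct, 3 of 20 rose (15%) and 4 fell (20%). Calb1, a calcium-binding protein of this epithelium, had a signal of 6179, 8575 and 12290 in the wild type and 1098, 1943 and 3103 in the null. The groups did not overlap, the difference was -2.20 ± 0.25 (adjusted p 4.71e-05), and it was the only list gene of the bud called in all alternatives, though its other probe sets gave -2.12 and 0.29. Emx2, a homeobox gene of the bud, fell by 1.02 ± 0.25, and the epithelial adhesion genes Epcam and Cdh1 fell by 0.69 ± 0.24 and 0.61 ± 0.19. These calls were lost on leaving out any 1 of 7 libraries for Epcam (adjusted p up to 0.0832), any 1 of 4 for Cdh1 (0.0585) and null E13.5 replicate 2 for Emx2 (from -1.23 to -0.85). With the actin covariate Calb1, Emx2 and Epcam were called. Gata3, a regulator of duct fate, rose by 2.03 ± 0.40 and Tfap2b by 1.12 ± 0.27, both least at E16.5. The other Tfap2b probe set gave 0.28 without a shared call.

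Of 16 early nephron genes measured, 9 rose and 1 fell, beside 22.1% and 19.1% of all genes, and the median was 1.14. By the F test 5 of the 16 differed between stages, beside 1913 of all 13600 genes. Sfrp2, a secreted modulator of Wnt signals, was 2568, 3060 and 4420 in the wild type and 8009, 12332 and 15290 in the null. The groups were apart at every stage, by 1.85 ± 0.17 (adjusted p 1.59e-05) with 1.92, 1.99 and 1.65. Lhx1, needed for the renal vesicle to form a tubule, rose by 2.56 ± 0.44 and Greb1 by 2.45 ± 0.39. Both were unequal between stages (F test adjusted p 0.0459 and 0.00855) and largest at E13.5, and another Greb1 probe set fell by 0.71. The other Lhx1 probe set gave 0.41 without a shared call. Wnt4, which starts the change to epithelium, rose by 1.13 ± 0.22 and Pax8 by 1.19 ± 0.20. The fall was in Dkk1, a Wnt inhibitor, at -1.17 ± 0.22. With the actin covariate the median was 0.42 and 1 of the 16 was called, Sfrp2.

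Podocyte genes followed a like count, 8 up and 1 down of 15 with a median of 0.92. Actn4, an actin cross-linker found in many cells, was 4368, 4737 and 8687 in the wild type and 14123, 16320 and 22117 in the null, without overlap, a rise of 1.60 ± 0.13. Foxc1, a regulator also of mesenchyme, rose by 1.88 ± 0.21 and Podxl, the sialoprotein of podocytes and vessels, by 1.39 ± 0.22, with -0.36 in its other probe set and no call there. Nphs1, which encodes nephrin of the slit diaphragm, was 0.72 ± 0.37 without a call, since 0.21 and -0.23 at the early stages stood against 2.17 at E16.5. Col4a4, a collagen of the mature glomerulus, fell by 0.99 ± 0.31, a call lost without any 1 of 4 libraries (adjusted p up to 0.0528). The tubule segment list had 1 call among 12, Cubn, a receptor for filtered proteins, at 0.80 ± 0.30 with an adjusted p of 0.04999. That call was lost without any 1 of 9 libraries (adjusted p up to 0.12). The median was 0.11, and -0.04 with median centring. With the covariate 1 podocyte gene, Actn4, was called.

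Stromal genes rose in 12 of 20 cases and fell in 0, with a median of 0.96, against a background of 22.1% and 19.1%. The F test found 5 of the 20 to differ between stages, beside 1913 of all 13600 genes. Col1a2, the partner chain of type I collagen, had signals of 6065, 9271 and 18643 in the wild type and 27708, 36222 and 55721 in the null. The lowest null sample was above the highest wild type sample, and the rise was 1.90 ± 0.16 (adjusted p 8.28e-06). Dlk1, a Notch-related growth regulator, rose by 2.37 ± 0.29 and Sfrp1, a Wnt inhibitor, by 1.88 ± 0.23. Foxd1, the factor of cortical stroma, rose by 1.03 ± 0.20. Tbx18 and Meis1 passed the test but turned at E16.5, with -0.26 and -0.34 there. The summed signal of 20 stromal genes was 90531 to 134179 in the wild type and 173734 to 253114 in the null, with no overlap. With the covariate the median was 0.70 and 1 gene, Col1a2, was called.

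Basement membrane genes, the laminins, collagen IV chains and their linkers, rose in 8 of 11 cases and fell in 0. Of these 8, 7 had no overlap between genotypes at any stage and Lama5 did. Lama5 lost its call without null E12.5 replicate 2 (0.71 to 0.99 over left-out libraries). Called or not, 8 of the 11 lay higher in the null without overlap at every stage, beside 2250 of all 13600 genes. The median was 1.21, and 0 of the 11 differed between stages by the F test, beside 1913 of all 13600 genes. Col4a2 was 1851, 2824 and 3330 in the wild type and 8179, 9228 and 18571 in the null. Its groups stood well apart, by 2.03 ± 0.18 (adjusted p 1.26e-05) and by 2.58 at E16.5. Its partner chain Col4a1 rose by 1.34 ± 0.16. Nid2 rose by 1.77 ± 0.17, Lama1, the laminin chain of early epithelia, by 1.73 ± 0.23 and Lamc1 by 1.22 ± 0.27. Lamb1 and Hspg2 (perlecan) were 0.06 ± 0.16 and -0.13 ± 0.20 and had no call. With the covariate the median was 0.68 and Col4a2 and Nid2 were called.

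Endothelial genes had the highest median of the lists, 1.31, with 14 of 21 up and 0 down. Kdr, the main receptor for Vegfa, had signals of 1748, 1809 and 3503 in the wild type and 8178, 11325 and 15746 in the null. The rise of 2.36 ± 0.18 (adjusted p 6.52e-06) was close to equal at the stages, 2.38, 2.70 and 2.00, and the samples did not overlap. Robo4 rose by 1.73 ± 0.16, Sox18 by 1.73 ± 0.18 and Esam, a junction protein, by 1.31 ± 0.15, each with 3 near-equal stage values. Vwf, a clotting factor stored in endothelium, rose unequally, by 5.19 at E12.5 and 1.31 at E13.5 (F test adjusted p 0.00299). Of the 21 genes, 7 differed between stages by the F test, beside 1913 of all 13600 genes. Erg, Ets1, Egfl7, Emcn and Icam2 had no call, at -0.18, -0.15, 0.24, 0.31 and 0.23, and for Erg the brightest 430A probe set, which enters the summed signal, was at or below the floor in all 12 samples. Summed over 21 genes, signal was 25534 to 41139 in the wild type and 54208 to 88343 in the null. With the covariate the median was 1.25 and Tie1, Kdr, Robo4, Sox18, Esam and Eng were called.

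**Figure D4:**
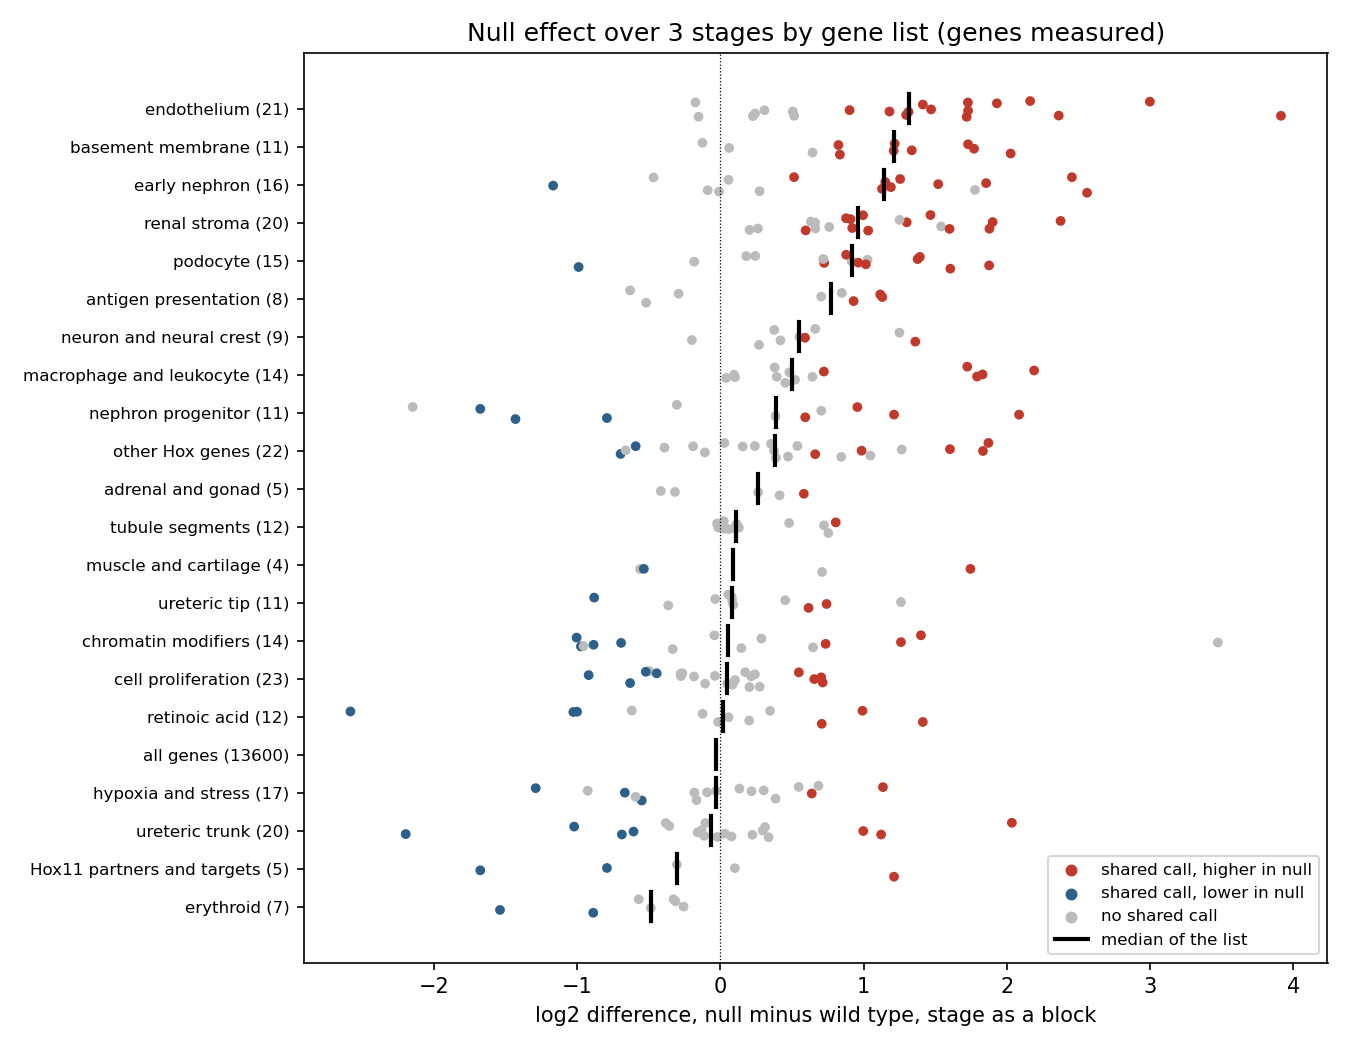
Log2 difference of each measured gene of 21 lists (points: red rose, blue fell, grey neither) with the median of the list as a bar, beside the median alone of 13600 genes. Endothelium, basement membrane, early nephron, stroma and podocyte lists lie highest, with medians of 1.31 to 0.92.

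Cell types outside the kidney epithelium and stroma were checked in the same way. Macrophage genes rose in 5 of 14 cases (35.7%) with 0 down, beside 22.1% up and 19.1% down of all genes. Csf1r, the receptor that keeps macrophages alive, had signals of 1379, 1611 and 2220 in the wild type and 3487, 6273 and 7714 in the null, apart at every stage, and rose by 1.72 ± 0.17. The complement genes C1qa and C1qc rose by 1.83 ± 0.28 and 1.79 ± 0.31, while C1qb, of the same complex, was 0.04 ± 0.23 and Ptprc, carried by all leukocytes, 0.09 ± 0.32. With the actin covariate Csf1r alone of the 14 was called, with C1qa at 1.83 (adjusted p 0.0945) and C1qc at 2.14 (0.0749). The sum over 16 genes was 7105 to 9787 in the wild type and 12469 to 24497 in the null. Erythroid genes fell in 2 of 7 cases (28.6%) with 0 up. Hbb-y, an embryonic globin, fell by 1.54 ± 0.35, mostly at E16.5 (-0.37, -1.17 and -3.07, F test adjusted p 0.00295), and Hba-x by 0.89 ± 0.26, the latter without a call with scan day as a random block (adjusted p 0.063) or without E16.5. With the actin covariate Hbb-y alone of the list was called. Their sum over 9 genes overlapped, 24242 to 86230 in the wild type and 8423 to 73753 in the null.

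In 3 lists of neighbouring tissue, the share of genes that rose was near that of all genes (22.1% up, 19.1% down). It was 22.2% of neuronal and neural crest genes, 25% of muscle and cartilage genes and 20% of adrenal and gonad genes. The shares that fell were 0%, 25% and 0%. Of 9 neuronal and neural crest genes Nefm and Nefl, neurofilament chains, rose by 1.36 ± 0.22 and 0.59 ± 0.19 (median 0.55, with 0.87, 0.56 and 0.00 by stage, and -0.28 with the actin covariate). Without E16.5, 5 of the 9 rose, beside 6358 of 27323 probe sets tested in that fit. The other Nefl probe set gave -0.13 without a shared call. In the muscle and cartilage list, Col2a1 of cartilage rose by 1.74 ± 0.24 and Tnnt1 of muscle fell by 0.54 ± 0.18 (median 0.09 over 4, with 1.08 at E12.5 and -0.46 at E16.5, and -0.18 with median centring). Of 5 adrenal and gonad genes Inha rose by 0.58 ± 0.19 (median 0.26, and -0.04 with median centring), and Cyp11a1 and Amh were at or below the floor by their brightest 430A probe sets. Leaving out single libraries cost Nefl its call for any 1 of 7, Tnnt1 for any 1 of 6 and Inha for any 1 of 6 (adjusted p up to 0.0583, 0.076 and 0.0724). The sums overlapped in range for all 3 lists: 2481 to 5250 against 2023 to 11550 for 12 neuronal genes, 3219 to 8110 against 2388 to 16852 for 10 of muscle and cartilage, and 1776 to 2726 against 1479 to 3885 for 9 of adrenal and gonad, wild type first. The median neuronal sum was 4280 in the wild type and 7765 in the null, above the highest wild type sample, and those of muscle and cartilage were 6391 and 7066 and of adrenal and gonad 2543 and 3093. Their part in the other differences was not tested. Antigen presentation genes rose in 3 of 8 cases (37.5%), beside 22.1% of all genes. These were Tapbp, H2-D1 and Tap1, with rises of 1.12 ± 0.23, 1.13 ± 0.27 and 0.93 ± 0.31. H2-D1 lost its call without null E13.5 replicate 2 (0.98 to 1.37 over left-out libraries) and Tap1 without any 1 of 6 libraries (adjusted p up to 0.0636), and 0 of the 8 were called with the actin covariate.

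Sex was uneven between the samples. Xist, made from the silent X of females, read 11018, 13295 and 12832 in both E12.5 null samples and the first E13.5 null sample, and 564.9, 281.4 and 122.9 in the other 3. Eif2s3y of the Y chromosome was at 1.1 to 3.7 in the first 3 and 342.2 to 469.9 in the others. In the wild type E16.5 samples both genes were high, Xist at 14121 and 9191 and Eif2s3y at 462.4 and 1451. In the wild type E13.5 samples both were low, Xist at 301.5 and 525.1 and Eif2s3y at 20.9 and 9.6. Neither gene had a shared call. The part of sex in the other genes was not tested.

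Other Hox genes moved in both directions. Of 22 measured, 5 rose (22.7%) and 2 fell (9.09%), beside 22.1% and 19.1% of all genes. The share that rose was thus near that of all genes, and the share that fell was lower. Their median of 0.38 became -0.23 with the actin covariate. Hoxc10, of the neighbouring paralogue group, was 7375, 10531 and 15512 in the wild type and 32354, 35768 and 51155 in the null, without overlap, a rise of 1.83 ± 0.19 that held in all alternatives. Hoxc6 rose by 0.98 ± 0.23 and Hoxc9 by 0.66 ± 0.18. Hoxb3 rose by 1.60 ± 0.39, was -0.23 with the covariate and -0.49 by its other probe set. Hoxa5 rose by 1.87 ± 0.38 mostly at the early stages (2.49, 2.89 and 0.23, F test adjusted p 0.00578), and its other probe set fell by 1.43. The call was lost without null E16.5 replicate 2 (1.61 to 2.17 over left-out libraries). The genes that fell were Hoxa9 and Hoxa10, beside Hoxa11 on the chromosome, by 0.59 ± 0.15 and 0.70 ± 0.20. Of the 12 genes on each side of Hoxa11, 17 were measured, of which 2 rose and 3 fell, with a median of 0.05. Around Hoxd11, 17 were measured, 0 rose and 3 fell, Mtx2, Atf2 and Atp5g3, with a median of -0.14. Hoxd8, Hoxd9 and Hoxd10 lay between -0.19 and 0.03 and had no call. Hoxd13 was -0.66 ± 0.34, with -1.61 at E16.5, and Hoxd3 was 0.47 ± 0.25, with 1.15 at E13.5. Neither had a call.

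Of 12 genes of retinoic acid supply and response, 3 rose and 3 fell (25% each), beside 22.1% and 19.1% of all genes. The median was 0.02, and -0.24 with median centring. Aldh1a3 and Aldh1a1, enzymes that make retinoic acid, fell by 1.03 ± 0.23 and 2.58 ± 0.43, and Crabp2, which carries it to the nucleus, by 1.00 ± 0.18. Aldh1a3 had signals of 476.8, 961.0 and 2040 in the wild type and 291.9, 510.5 and 795.0 in the null, apart within each stage though not over all samples. It was called in all alternatives and was the only one of the 6 called with the actin covariate, at -2.05. Aldh1a1 was then -1.38 (adjusted p 0.338), Crabp2 -0.97 (0.148), Dhrs3 1.12 (0.11), Rarg 0.51 (0.576) and Cyp26b1 0.09 (0.936). Aldh1a1 was unequal, at -3.74, -3.39 and -0.62 (F test adjusted p 0.00196). Aldh1a2, the enzyme of the stroma, was -0.12 ± 0.18 and had no call. Dhrs3, which turns retinal back to retinol, rose by 0.71 ± 0.19 with 0.64, 0.73 and 0.74 by stage, Rarg, a receptor, by 0.99 ± 0.26 and Cyp26b1, which degrades retinoic acid, by 1.41 ± 0.36 but 0.10 at E16.5. Cyp26b1 lost its call without wild type E16.5 replicate 1 (1.14 to 1.62 over left-out libraries) and with scan day as a random block (adjusted p 0.104).

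Growth, stress and chromatin lists held calls both ways, mostly at or under the shares of all genes (22.1% up, 19.1% down). The shares up and down were 17.4% and 17.4% for proliferation and 11.8% and 17.6% for hypoxia and stress. For chromatin they were 21.4% and 28.6%, and only these falls lay above the background. Of 23 proliferation genes 4 rose (Bub1b, Mcm5, Mcm2 and Plk1, by 0.55 to 0.71) and 4 fell (Birc5, Rrm2, Mki67 and Pcna, from -0.92 to -0.45). The balance depended on the setting: median centring gave 0 up and 5 down with the median turned from 0.05 to -0.18, quantile normalization 5 and 2, leaving out E12.5 4 and 0, and the actin covariate 0 and 0. Mcm5 also lost its call with scan day as a random block (adjusted p 0.062). Single libraries decided the calls of Mcm5 (wild type E12.5 replicate 2, 0.57 to 0.81), Birc5 (wild type E16.5 replicate 2 or null E16.5 replicate 1, -1.10 to -0.75) and Mki67 (any 1 of 6, adjusted p up to 0.0742). In the hypoxia and stress list Bnip3, a mitochondrial target of hypoxia signalling, fell by 1.29 ± 0.18, evenly at -1.15, -1.24 and -1.48. Pgk1, a glycolytic enzyme, fell by 0.67 ± 0.13 and Egln3, an oxygen sensor, by 0.55 ± 0.17, while Pdk1 rose by 1.13 ± 0.25 by 1 probe set and fell by 1.60 by another. Pdk1 lost its call without wild type E16.5 replicate 2 or null E16.5 replicate 1 (1.02 to 1.33) and Egln3 without any 1 of 4 libraries (adjusted p up to 0.0567). Over the list, 2 of 17 rose and 3 fell, with a median of -0.03. Of 14 chromatin modifiers 3 rose and 4 fell, with a median of 0.05, and -0.21 with median centring. Dnmt1, which copies DNA methylation, had signals of 2823, 4403 and 7970 in the wild type and 8187, 11657 and 15862 in the null, apart throughout, and rose by 1.40 ± 0.20. The Polycomb genes Ezh2 and Eed fell by 0.69 ± 0.18 and 0.97 ± 0.22, Hdac2 fell by 1.00 ± 0.24 and Tet1 by 0.89 ± 0.26, against 2.77 in its other probe set, while Tet2 rose by 1.26 ± 0.29, without a call with scan day as a random block (adjusted p 0.123). With the actin covariate Eed alone of the list was called. Kdm6b passed the test at 3.47 ± 0.98 and was left out, since it was -0.92 at E16.5 after 5.23 and 6.10.

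Size was not the same at the stages for all that shared a direction. Of the 10746 shared calls 1056 (9.83%) differed between stages by the F test, and the test named 5150 of all probe sets (17.5%). A shared call needs the same sign at all 3 stages, which by itself removes probe sets whose effect turns. The lower share among shared calls is therefore no result about them. Of the probe sets tested, 15592 (53.1%) had 1 direction at all 3 stages. The early stages were most alike. Across probe sets, which are not independent and share the arrays' RNA and amplification, the E12.5 and E13.5 differences had a correlation of 0.73. Those of E12.5 and E16.5 had 0.21 and those of E13.5 and E16.5 had 0.29. In the same order, 430A alone gave 0.83, 0.37 and 0.50. On 430B the values were 0.66, 0.06 and 0.09, so there the early and E16.5 differences were nearly uncorrelated. The E16.5 null arrays were also those read on another scanner type, and its part was not tested. The median size of a rise was 0.96, 1.12 and 1.18 at the successive stages, and that of a fall -0.84, -0.94 and -1.11.

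Design and gene length moved with the direction. On 430A 27.7% of probe sets rose and 18.3% fell, on 430B 9.02% and 19.1%, and the median difference was 0.14 and -0.29. Over 100 probe sets present on both designs, the differences had a correlation of 0.98 and the same sign in 92. Of 1657 genes with several shared calls, 260 (15.7%) had calls in both directions, so that the direction of a gene depended on the probe set there. Among 5950 genes with 2 or more probe sets tested, 2328 had a shared call in exactly 1 of them. The span of the gene in RefSeq was 29.2 kb at the median for genes that rose, 18.1 kb for those that fell and 23.3 kb for all. In the shortest 20% of genes (up to 7.58 kb) 13.1% rose and 23.7% fell, and in the longest (71.3 kb and over) 27.2% and 12.8%. The part of length in the direction was not tested.

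Over the lists, 119 genes had a shared call. Of these, 89 were called whichever of the 12 libraries was left out and 30 lost the call without at least 1, as given beside those named. With the actin ratio as a covariate 20 of the 119 were called. Over all probe sets, 819 of the 5236 that rose and 521 of the 5510 that fell kept their call with it.

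A core of calls was the same in all 29 alternatives, a set defined after the data were seen. Of 29383 probe sets tested, 484 rose in it, with 436 genes named among them, and 277 fell, with 213 named. Beyond those described, the largest rises included Mmp14, a membrane protease of matrix, at 4.04 ± 0.35, Gna12, a G protein subunit, at 3.96 ± 0.28, Timp2, a protease inhibitor, at 3.44 ± 0.28, Col5a1 at 3.43 ± 0.27 and Igf2r, which clears insulin-like growth factor 2, at 3.21 ± 0.18. Pdgfrb, the receptor of stroma and pericytes, rose by 3.04 ± 0.26 by 1 probe set and by 1.00 ± 0.25 by the one used for its list. The falls included Polr3k, a subunit of RNA polymerase III, at -2.63 ± 0.22, Eif3e, a translation initiation factor, at -2.34 ± 0.28, the ribosomal protein Rps24 at -2.09 ± 0.23, Spc25 of the kinetochore at -2.04 ± 0.18 and Ndufv2 of the respiratory chain at -1.92 ± 0.14. Ndufv2 had signals of 8465, 10291 and 14573 in the wild type and 2241, 2793 and 3373 in the null. Its highest null sample was below its lowest wild type sample. Of the list genes, Calb1 and Aldh1a3 were in the core among the falls. Among the rises were Sfrp2, Actn4, Col1a2, Col4a2, Nid2, Csf1r, Hoxc10 and 6 endothelial genes, Tie1, Kdr, Robo4, Sox18, Esam and Eng.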

How the data were processed

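The authors deposited MAS5 signal per probe set (MAS5 is named in the submitters' processing notes); from the values, arrays share a trimmed mean. Settings, detection calls and genome build are not given in the sources used here. Signal under the 20th percentile of a design (87.8 on 430A, 145.9 on 430B) was raised to it, then log2 was taken. Probe sets whose mean exceeded their design's median in at least 1 of 6 groups were tested (13814 on 430A, 15569 on 430B). Each design was fitted with limma 3.58.1 in R 4.3.3 (stage plus genotype, eBayes with trend, two-sided), with Benjamini-Hochberg adjustment over both designs. Stage differences and the F test of genotype by stage came from a fit of 6 group means. The fit was tested on simulated data. A list gene was read by 430A before 430B, then by its brightest probe set. Members, the 22 lists (339 genes, 275 measured) and the naming rule were chosen with earlier results of these data known. The rule took 10 genes each way with several concordant probe sets, 6 others each way and up to 3 called genes per list, and other list genes show a list's range. Names are from the platform annotation and RefSeq (GRCm38.p6). With 2 arrays per group on each design, the number of arrays limits precision. Samples of a group shared at most 0.137% of values on a design, so none was a duplicate. Python 3.11.15 and matplotlib 3.10.9 drew the plots. Adult samples were not used here.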

Additional observations from a re-analysis of the deposited data

Results flagged for a closer look

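Among 180 groups of 6 samples over the named genes, 6 held a sample far from the rest, and chance alone marks about 1 group in 20. Wild type E12.5 replicate 1 had a Hoxa11 signal of 3430.6, above 1940 to 2353.4 in the others. For Hdac7, wild type E12.5 replicate 2 read 1108.7, above 783.3 to 862.6. Wild type E13.5 replicate 2 was low for Emilin1 at 1566.1, against 2351.7 to 2722.1, and for Tie1 at 29.1, against 121 to 212.3. In the null E16.5 samples, replicate 2 read 584.1 for Med6, below 1398.3 to 1821.4, and replicate 1 read 3332.6 for Pdk1, above 1663.9 to 2088.3.

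The null effect differed between stages in 14 of 90 named genes by the F test of genotype by stage (limma, adjusted over all probe sets). Effects larger at the early stages were those of Peg3 (adjusted p 0.000587), Sox4 (0.0292), Lhx1 (0.0459), Greb1 (0.00855), Cx3cr1 (0.0141), Hoxa5 (0.00578), Aldh1a1 (0.00196) and Cyp26b1 (0.00249). Cx3cr1, a receptor of macrophages, was 3.59, 2.30 and 0.68 at the successive stages. Effects larger at E16.5 were those of Ssb (0.0447), Ap1s3 (0.0418), Hbb-y (0.00295) and Mcm5 (0.0398), the last with 0.03, 0.73 and 1.35. Vwf was largest at E12.5 (0.00299). Xist turned from 3.84 and 2.76 to -5.94 (0.00157), beside the uneven sexes of the samples.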

How the results depend on the processing

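Of 29 alternatives, none turned a called probe set to a call of the other direction. The counts were 5236 up and 5510 down. A minimum of 2-fold gave 3083 and 2664, and the actin ratio as a covariate gave 841 and 550. Scan day as a random block gave 2130 down, and leaving out E12.5 gave 3456 down. Calls the same in every alternative, a rule chosen after seeing the data, numbered 484 and 277. Leaving out 1 library gave 4588 to 5210 up and 4456 to 5178 down, and 2212 to 5840 calls in the F test against 5150 with all. The F test gave 3389 without wild type E12.5 replicate 1, 2212 and 2744 without wild type E16.5 replicates 1 and 2, and 2552 and 3389 without the null ones. With the replicate number as a block 4454 rose and 4160 fell; the numbers did not pair samples (correlations of deviations from -0.37 to 0.19). Xist, without a call at 0.22, was -0.042 with median centring, -3.77 with the covariate, -1.59 without E12.5 and -1.05 without E13.5, and -0.66 to 1.14 without single libraries. With the covariate Hoxb3 was -0.23 and Cyp11a1 0.11, both with the sign turned. Hoxb3 lost its call, as did 55 more of the 90 named genes. Of the 90, Xist, Eif2s3y, Cyp11a1 and Hnf4a had no call to lose. Scan day as a random block ended 12 named calls. The causes were not tested. Quantile normalization moved the median difference from 0.14 to -0.02 on 430A and from -0.29 to -0.08 on 430B, median centring to -0.14 and 0.09. Scan day as a fixed term was not run, since genotype could not be estimated beside it.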
